A study of Bos taurus with 8 samples.

Results

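The miRNAs miR-191 and miR-425 come from neighbouring hairpins, and 3 of their mature forms were measured in bovine sera and exosomes. They were taken as the rows named bta-miR-191 and bta-miR-425 with any arm suffix, which gave miR-191, miR-425-5p and miR-425-3p out of 534 miRNAs listed. Blood was drawn from 4 healthy, lactating Holstein cows, and each cow gave 1 small RNA library of serum and 1 of the exosomes isolated out of that serum. The cows carried no treatment or allele that set groups apart. Sera and exosomes were extracted with different kits and from different serum volumes, so sample type and extraction cannot be told apart. "Exosomes" are what the isolation kit recovered, and the tables hold no vesicle marker against which the label could be checked.

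A miRNA hairpin is cut by Dicer into a duplex whose 2 strands come from its 5p and 3p arms. One strand is usually kept by an Argonaute protein as the guide and the other is mostly degraded, so the reads of the arms are rarely equal. MiR-191 and miR-425 are conserved in mammals and are made from 1 primary transcript, which in human lies in an intron of DALRD3, a gene named for an anticodon-binding domain of tRNA synthetases. Both are abundant in blood cells, and miR-191 has often been proposed as a reference miRNA in blood and tissue. In the RefSeq annotation of the cattle assembly ARS-UCD2.0, MIR191 and MIR425 are listed between NDUFAF3 and DALRD3 on chromosome 22. Only the entry MIR191B comes between them in the list, and its span lies within that of MIR191. That assembly is not the one used in the study, so no positions are given.

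The tables hold RPM, the reads of a miRNA scaled to the miRNA reads of its library. Whole reads were recovered from the values, and the libraries held from 264769 to 590162 miRNA reads for sera, against 60682 to 157710 for exosomes. A level of 3 reads, taken as the least that the depth can show, corresponds to 5.08 to 11.3 RPM for sera, against 19.0 to 49.4 RPM for exosomes. Intervals given for single libraries are 95% exact binomial intervals, and they cover counting error only, since PCR copies of a molecule are counted as separate reads. RPM is a share, so a miRNA is read against all others of its library. The 4 erythrocyte miRNAs miR-451, miR-486, miR-144 and miR-363 summed to 154769 to 239033 RPM in sera, with 195412 to 384867 RPM in exosomes, with reads for each in all libraries. Their part in the results was not tested. The 4 leukocyte miRNAs (miR-142-3p, miR-142-5p, miR-150 and miR-223) summed to 30179 to 39387 RPM in sera, with 31571 to 45582 RPM in exosomes, all with reads in every library. The 2 liver miRNAs, miR-122 and miR-885, summed to 13.5 to 135.5 RPM in sera, with 16.5 to 58.6 RPM in exosomes and 2 values at 0. The 4 muscle miRNAs (miR-499, miR-208b, miR-133a and miR-133b) summed to 203 to 23093 RPM in sera, with 164 to 26301 RPM in exosomes and 3 values at 0, and the highest sum of both sample types was in cow 1. In such cell-free samples, release from fewer cells and release of less miRNA per cell cannot be told apart.

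MiR-191 was the most abundant of the 3 by a wide margin. In sera of cows 1 to 4 it had 27300.2, 21309, 32855 and 18919 RPM, and in exosomes 27191, 19056, 26045 and 16220 RPM. Cow 3 was highest in sera and cow 1 in exosomes, cow 4 was lowest in both, and the ranges of the sample types overlapped. Sera had a mean of 25096 ± 6260 RPM and exosomes of 22128 ± 5333 RPM (SD, n = 4), from 37004 and 9320 reads. With 1650 reads or more in each library, counting error was small, and the serum value stood between 0.952 and 1.32 times the exosome value over the intervals of the 4 cows. The intervals of cows 2, 3 and 4 were above 1, with serum 1.12, 1.26 and 1.17 times higher, whereas in cow 1 the interval held 1 (0.952 to 1.06). The spread between cows was 24.9% of the mean in sera and 24.1% in exosomes. Among the miRNAs within 10 ranks of it in mean level, the median spread was 17.9% in sera and 21.3% in exosomes, and miR-191 varied more than 13 of 18 in sera and 13 of 20 in exosomes.

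MiR-425-5p, the main arm of its hairpin, was far below miR-191 in every library. In sera of cows 1 to 4 it had 2276, 1996, 3097 and 1817 RPM. The exosomes had 2324, 2020 (259 reads), 1904 and 1775 RPM in the same order of cows. The sera stood in the same order of cows as for miR-191, with cow 3 highest and cow 4 lowest, and the exosome values lay inside the range of the sera except that of cow 4, which was just under it. Sera had a mean of 2296 ± 566 RPM and exosomes of 2006 ± 234 RPM (SD, n = 4). In exosomes the counting intervals of neighbouring cows overlapped, so the order of cows there was not resolved. The spread between cows was 24.7% of the mean in sera and 11.7% in exosomes. MiRNAs of like rank had a median of 18.2% in sera and 22.8% in exosomes. MiR-425-5p varied more than 12 of 20 of them in sera and 4 of 20 in exosomes. In cows 1, 2 and 4 the serum value was 0.979 (0.814 to 1.18), 0.988 (0.863 to 1.14) and 1.02 (0.892 to 1.18) times the exosome value. In cow 3 serum was 1.63 times higher (1.39 to 1.91), and with both libraries of cow 3 left out the fitted log2 fold change of exosomes over sera on log2(RPM + 1) was 0.0046.

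MiR-425-3p, the strand of the hairpin that is mostly discarded, was the least abundant of the 3 in every library. It had 123.5, 93.2, 381.5 and 80.7 RPM in the sera of cows 1 to 4, from 33, 55, 101 and 36 reads. In exosomes it had 16.5, 7.8, 117 and 50.7 RPM, from 1, 1, 12 and 8 reads. The value of cow 3 was the highest of both sample types, and its exosome library overlapped the sera of the other cows. The exosome libraries of cows 1 and 2, with 1 read each, were below the limit of 3 reads. Sera had a mean of 170 ± 142 RPM and exosomes of 48.0 ± 49.6 RPM (SD, n = 4), so the spread between cows was 83.9% and 103% of the mean. It ranked 135 by mean level in sera and 185 in exosomes, while miR-425-5p ranked 54 and 52. At the level of each cow's own serum, the exosome libraries would have held 71.3 reads of miR-425-3p in all, and 22 were found. In cows 1 to 4, 7.50, 12.0, 39.1 and 12.7 were expected against 1, 1, 12 and 8 found. Cow 3, with its high serum value, thus gave the largest part of the expected reads. The serum value was 7.50 times the exosome value in cow 1 (1.25 to 305), 12.0 times in cow 2 (2.06 to 481), 3.26 times in cow 3 (1.78 to 6.51) and 1.59 times in cow 4 (0.728 to 3.96). The wide intervals of cows 1 and 2 come from the single read in the exosomes.

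**Figure D1:**
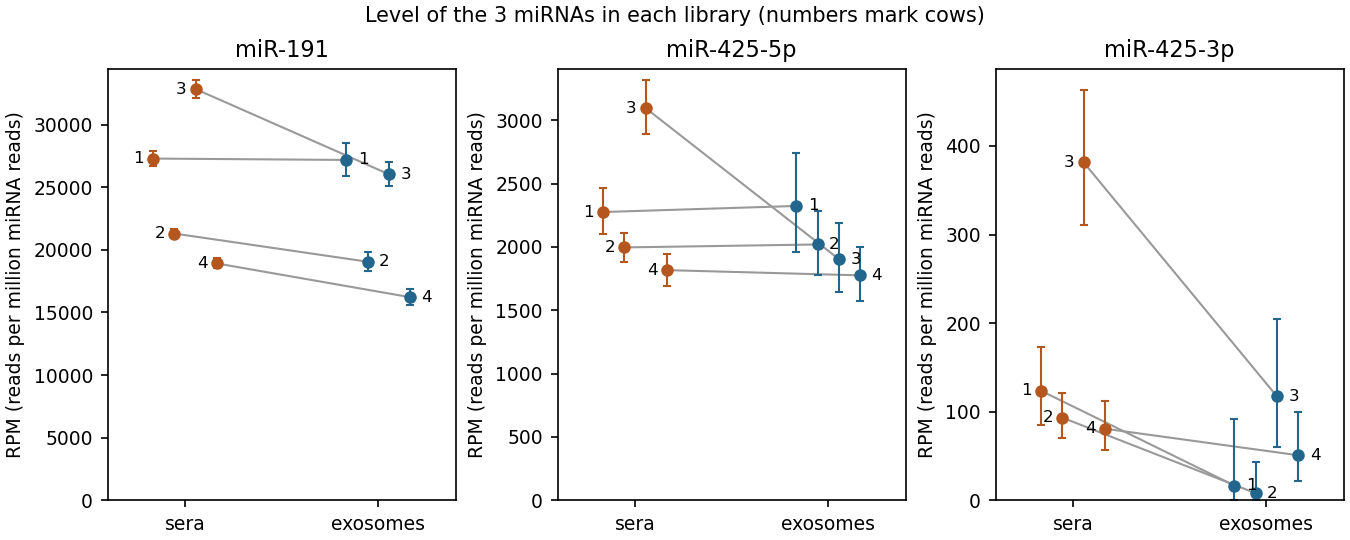
RPM of miR-191, miR-425-5p and miR-425-3p (vertical axes, each with its own scale from 0) in the sera and exosome library of each cow, with lines joining libraries of 1 cow and bars for 95% exact binomial intervals. MiR-425-3p is lower in the exosomes of 4 of 4 cows, from 80.7 to 381.5 RPM in sera to 7.8 to 117 RPM in exosomes, while miR-425-5p is lower mainly in cow 3.

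The sample types were compared with limma on log2(RPM + 1) over the 365 miRNAs above 1 RPM in 2 or more cattle of a sample type, and a call needed an FDR under 0.05 with a log2 fold change (FC) beyond 1 in either direction. All 3 miRNAs passed the filter on low values, and miR-191 and miR-425-5p had 10 or more reads in each library. None of the 3 was called, in a fit that called 16 of 365 miRNAs (4.38%). The log2 FC of exosomes over sera was -0.18 for miR-191 (95% interval -0.71 to 0.34, FDR = 0.709) and -0.17 for miR-425-5p (-0.61 to 0.27, FDR = 0.664). The median log2 FC was -0.57 over all 365 miRNAs, of which 273 were lower in exosomes, and -0.31 over the 128 miRNAs with that many reads. Both miRNAs were above these medians. With TMM or DESeq2 scaling of the recovered reads the median of the 128 moved to -0.11 and 0.02. The log2 FC of miR-191 then turned to 0.03 and 0.16 and that of miR-425-5p to 0.04 and 0.16. MiR-191 was lower in exosomes in 4 of 4 cows, as were 112 of the 365 miRNAs (30.7%), and miR-425-5p in 2 of 4 cows.

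For miR-425-3p the log2 FC was -2.15 (standard error 0.79, 95% interval -3.84 to -0.46), against the median of -0.57 over all miRNAs tested. Its unadjusted p from limma was 0.0164 and its FDR 0.12, so it was not called. It was lower in the exosomes of 4 of 4 cows, as were 112 of the 365 miRNAs (30.7%). Its log2 FC ranked 28 of 365, counted from the lowest. The size of the value changed with the pseudocount and the scaling. With 10 RPM added in place of 1 it was -1.77. On the recovered reads edgeR gave -1.77 with library totals (FDR = 0.112) and -1.48 with TMM (FDR = 0.224, where 3.84% of miRNAs were called). The call changed with the pairing of the libraries. With the cow as a replicate block, limma gave an FDR of 0.00013 and edgeR a log2 FC of -1.44 with an FDR of 0.000599, in fits that called 9.59% and 7.12% of the miRNAs. With 4 cows these values rest mostly on variance pooled over miRNAs. The call also turned on 1 library: without the exosomes of cow 3 the limma FDR was 0.0387, with a log2 FC of -2.79. Without the serum of cow 3 the log2 FC was -1.66 (FDR = 0.298 by limma). Without both libraries of cow 3 it was -2.30 (FDR = 0.144 by limma).

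The ratio of miR-191 to miR-425-5p, the main forms from the primary transcript, lay between 9.14 and 13.7 in all 8 libraries. For each read of miR-425-5p there were 12.0, 10.7, 10.6 and 10.4 reads of miR-191 in sera of cows 1 to 4. The exosomes gave 11.7, 9.44, 13.7 and 9.14. The mean was 10.9 ± 0.724 in sera and 11.0 ± 2.13 in exosomes (SD, n = 4), and the exosomes lay on both sides of the sera. Small RNA kits capture sequences with unequal efficiency, so this is a ratio of reads and not of molecules. The difference in mean log2 ratio, exosomes minus sera, was -0.01 (two-sided exact permutation test with 70 assignments, p = 0.943; adjusted p = 0.943 over 2 tests), less than the spread between libraries. Leaving out 1 library or 1 cow at a time, it stayed between -0.13 and 0.07. The ratio was higher in exosomes in 1 of 4 cows, which was cow 3, where miR-425-5p was the lower of the 2 relative to serum. There its interval in exosomes (11.8 to 15.9) lay above that of the serum (9.87 to 11.4).

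The same ratio was computed for a list of other miRNAs that share a cluster, of which 12 of 18 pairs had at least 10 reads of both miRNAs in every library. The SD of the log2 ratio over the 8 libraries was 0.19 for miR-191 and miR-425-5p, and the pairs of the list had a median of 0.39. Over the 8 libraries miR-27a-3p with miR-23a (0.13) and miR-25 with miR-93 (0.17) varied less. Within sample types the SD was 0.20 for miR-191 and miR-425-5p, miR-93 with miR-106b (0.18) was also below it, and miR-17-5p with miR-20a (0.21) was about level with it. By the size of the difference between sample types miR-191 and miR-425-5p had the smallest value of the 13 pairs, where the list had a median of 0.34 on the log2 scale. With libraries or cows left out, the difference of this pair ran from -0.13 to 0.07. That range holds the -0.06 of miR-181a over miR-181b, so the place of the pair was not resolved. At the other end, miR-92a over miR-20a differed by 1.31 and miR-451 over miR-144 by 1.11, both towards exosomes. MiR-92a and miR-20a are both of the miR-17-92 cluster, and miR-92a, miR-451 and miR-144 are abundant in erythrocytes. The part of erythrocytes in these differences was not tested. The pairs were not matched for reads, and each SD includes counting error. MiR-425-5p had 141 reads or more in each library, whereas miR-20a had as few as 14. These values are a description, because pairs that share a miRNA or a library are not independent.

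**Figure D2:**
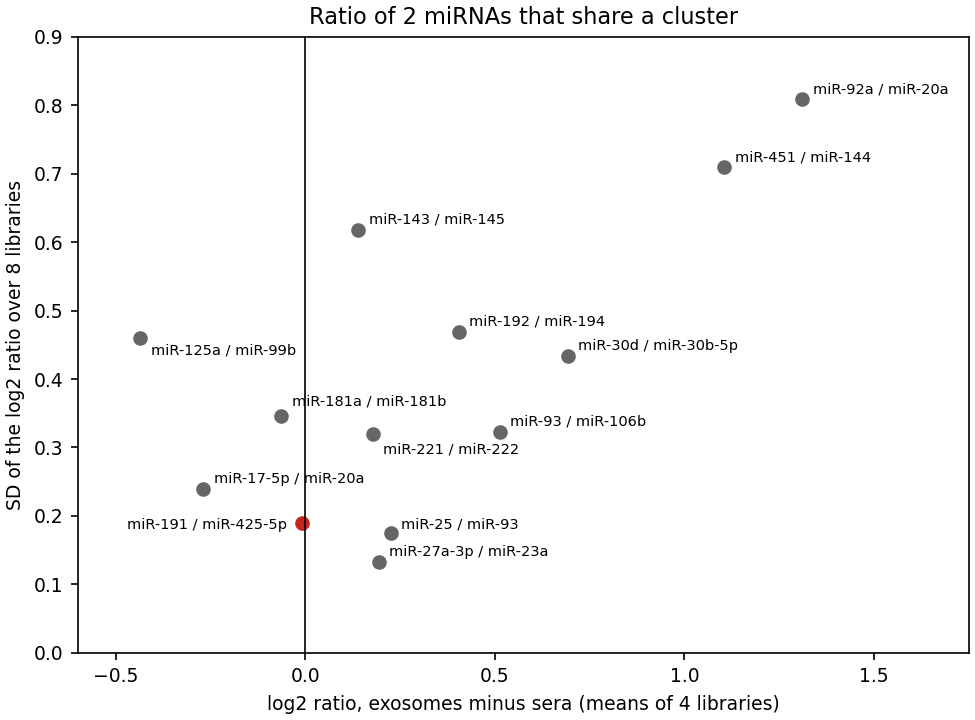
Each point is a pair of miRNAs of 1 cluster, with the difference in mean log2 ratio between exosomes and sera (horizontal axis) and the SD of the log2 ratio over the 8 libraries (vertical axis), and miR-191 over miR-425-5p in red. The red point lies at -0.01 and 0.19, close to no difference, while miR-92a over miR-20a and miR-451 over miR-144 lie beyond 1 on the horizontal axis.

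The ratio of the arms of miR-425 rests on far fewer reads, with 33 to 101 of the 3p arm in sera and 1 to 12 in exosomes, so its counting error is larger. MiR-425-3p made 5.15%, 4.46%, 11.0% and 4.26% of the miR-425 reads in sera of cows 1 to 4. In exosomes it made 0.704% (95% interval 0.0178% to 3.86%), 0.385% (0.00974% to 2.12%), 5.80% (3.03% to 9.91%) and 2.78% (1.21% to 5.40%). The serum of cow 3 stood apart from the other sera, and its interval (9.02% to 13.2%) did not meet theirs, which reached 7.15% at most. The share was lower in exosomes in 4 of 4 cows, yet the ranges overlapped through the exosomes of cow 3. Such agreement of all cows was also found for other hairpins, named below. The mean was 6.21% ± 3.20 in sera and 2.42% ± 2.49 in exosomes (SD, n = 4). The difference of -3.79 percentage points did not pass 0.05 (exact permutation test, two-sided p = 0.114; adjusted p = 0.229 over 2 tests). Flipping signs within cows gave an exact p of 0.125, as small as 4 cows can reach. Pooled over libraries, 225 of 3641 miR-425 reads in sera and 22 of 897 in exosomes were of the 3p arm, which is 6.18% (5.42% to 7.01%) and 2.45% (1.54% to 3.69%). These pooled intervals treat reads as independent and leave out the spread between cows, so they are no test of sample type. Without the exosomes of cow 3 the difference was -4.92 points (exact permutation test, p = 0.0286, the smallest that 3 against 4 libraries allow), and without the serum of cow 3 it was -2.21 points (p = 0.229 by the same exact test). With both libraries of cow 3 left out it was -3.33 points (exact permutation test, p = 0.1, also the smallest possible).

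**Figure D3:**
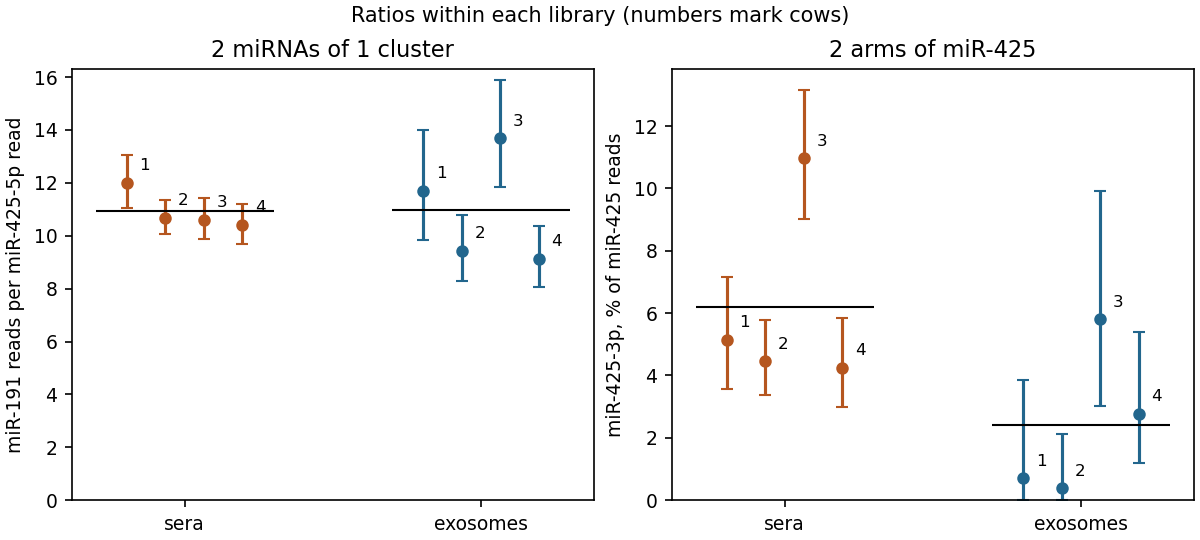
Left, reads of miR-191 per read of miR-425-5p, and right, miR-425-3p as a percentage of the miR-425 reads, in each library (points, numbered by cow), with 95% exact binomial intervals as bars and the mean of 4 libraries as a horizontal line. The left means are 10.9 in sera and 11.0 in exosomes, and the right means are 6.21% and 2.42%, with cow 3 highest in both sample types on the right.

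To place this against other hairpins, log2 of 5p over 3p reads was fitted with limma for all 19 miRNAs with reads of both arms in at least 4 libraries, out of 47 listed with both arms. For miR-425 it was 4.02 in sera and 5.75 in exosomes, a difference of 1.73 towards the 5p arm (95% interval 0.09 to 3.37, FDR = 0.194). This was the second largest difference in size among the 19 hairpins, where the median size was 0.62, but miR-425 also had the third largest spread within sample types, with an SD of 1.19 that includes the counting error of 2 exosome libraries with 1 read of the 3p arm. The fit called 2 of 19 hairpins (10.5%) and miR-425 was not one of them. With the cow as a replicate block (10.5% of hairpins called) it had an FDR of 0.0789, and without the exosomes of cow 3 a difference of 2.33 with an FDR of 0.0445 by limma. The called hairpins went in opposite directions. For miR-296 the difference was 2.46 towards the 5p arm in exosomes (FDR = 0.000659 by limma), with 26 reads of that arm in sera and 28 in exosomes. For miR-21 it was -1.47, towards the 3p arm (FDR = 0.00852 by limma), and miR-21-3p rose from 1.10% of the pooled miR-21 reads in sera to 2.92% in exosomes. Of the 19 hairpins, 7 leaned towards the 5p arm in exosomes and 12 towards the 3p arm. The 5p to 3p ratio was higher in exosomes in 4 of 4 cows for miR-425 and for miR-296. For miR-17, miR-22, miR-455 and miR-21 it was higher in 0 of 4 cows. Whether miR-425 differs from the other hairpins was not tested.

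**Figure D4:**
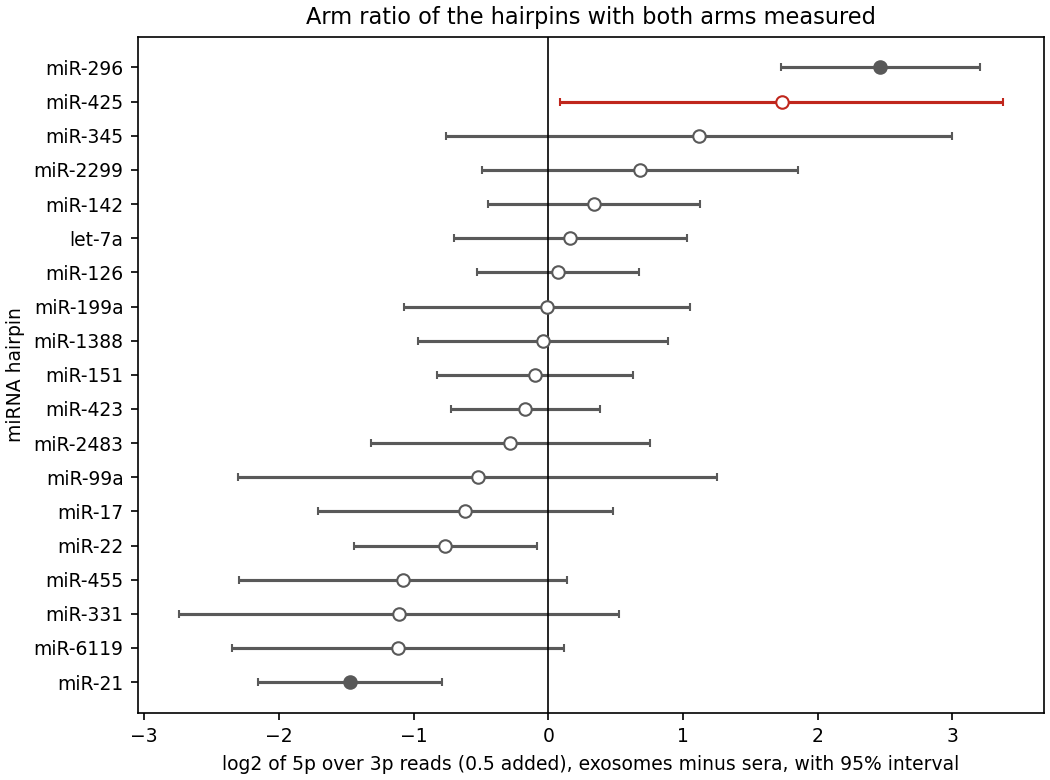
Difference between exosomes and sera in log2 of 5p over 3p reads (horizontal axis) for each of the 19 hairpins (vertical axis), with 95% intervals from limma, filled points for an FDR under 0.05 and miR-425 in red. MiR-425 lies at 1.73 with an interval of 0.09 to 3.37, next to miR-296 at 2.46, and miR-21 is at the other end with -1.47.

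The patterns of the 3 miRNAs over the libraries were compared with those of the miRNAs that had at least 10 reads in every library, by Pearson's r of log2(RPM + 1). The 8 libraries come from 4 cows and share depth and sample type in groups of 4, so these are descriptions. MiR-191 and miR-425-5p had an r of 0.84, which placed miR-191 second of 127 candidates for miR-425-5p and miR-425-5p 8th of 127 for miR-191. MiR-425-3p, in contrast, had an r of 0.407 with miR-425-5p, the other strand of its own hairpin, and 0.493 with miR-191. With the mean of each sample type removed these were 0.246 and 0.428, against 0.825 for miR-191 with miR-425-5p.

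For miR-191 the most similar miRNA was miR-30e-5p (r = 0.98), which had 17397, 15181, 20240.3 and 13550 RPM in the sera and 17599.9, 12312, 16586 and 12028 RPM in exosomes, cows 1 to 4. It has the same order of cows in both sample types as miR-191. MiR-130b (r = 0.955), miR-155 (0.918), miR-30d (0.906) and miR-421 (0.885) came next, at mean levels in sera from 183 RPM for miR-155, a miRNA of activated lymphocytes and macrophages, to 14496 RPM for miR-30d. For miR-425-5p the list was miR-30b-5p (r = 0.885), miR-191, miR-186 (0.833), miR-28 (0.832) and miR-151-3p (0.823). No miRNA was as close to miR-425-5p as miR-30e-5p was to miR-191.

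The miRNAs most like miR-425-3p were others. They were miR-222 (r = 0.982), miR-296-3p (0.96), miR-20a (0.958), let-7c (0.941) and miR-17-5p (0.935). MiR-222, a miRNA of endothelial and blood cells, had 1059, 949, 2006 and 1003 RPM in sera of cows 1 to 4. Exosomes of these cows had 511, 444, 1240 (127 reads) and 723 RPM. It shares with miR-425-3p the highest value of each sample type in cow 3 and the low exosome values of cows 1 and 2, and it rests on 31 reads or more in each library where miR-425-3p has as few as 1. MiR-17-5p and miR-20a, both of the miR-17-92 cluster, had 654 and 478 RPM in the exosomes of cow 3 and 343 and 187 RPM in those of cow 2. The summed erythrocyte miRNAs were lowest of the sera in cow 3, at 154769 RPM, and lowest of the exosomes in cow 1, at 195412 RPM. Their part in these patterns was not tested.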

How the data were processed

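Quality filtering by the authors used CASAVA 1.8, and sRNAbench served for adaptor trimming and alignment to bovine miRNAs of miRBase, library by library. They deposited RPM, 1 table per library, and each table summed to between 999998 and 1000002. The labels gave the sample type and a number, and libraries with the same number were taken as of 1 cow. Reads were recovered as the total for which all values were whole numbers of reads within 0.05 RPM (100% of values). No replicates agreed within sampling noise (chi-square per degree of freedom of at least 29.1). Depths are given in the report.

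The members and lists were chosen with earlier results of these data known. Named miRNAs are the 3 members, the 5 most similar to each, the cluster pairs of a list, the hairpins called in the arm fit, and the marker lists. Differential expression used limma with a trend on log2(RPM + 1), without a block. Ratios were tested by exact permutation, and arms by limma on log2 ratios with 0.5 reads added. Alternatives were other pseudocounts and filters, edgeR and DESeq2 on recovered reads, the replicate block, and each library left out. Cows left out in turn were added after seeing the data. The study names both sample types as coming from the same cattle. Over 128 miRNAs, deviations from the sample type means correlated with r of 0.740 to 0.860 within cows and -0.244 on average between cows. Deviations cancel over the cows of a sample type by construction, so the negative value between cows is no added evidence of pairing. The limma and edgeR fits over all miRNAs without the block were tested on simulated data. The fits with the block, DESeq2 and the arm fit were not part of that simulation. Tools were edgeR 4.0.16, DESeq2 1.42.0 and limma 3.58.1 in R 4.3.3, and SciPy 1.17.1 in Python 3.11.15. P-values without the block rest on the spread between libraries of these 4 cows, treated as independent. Those with the block or sign flips rest on differences within cows. Those from limma, edgeR and DESeq2 also draw on variance pooled over miRNAs, or over hairpins for the arms.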

Additional observations from a re-analysis of the deposited data

Results flagged for a closer look

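Each group of 4 libraries was searched for a value far from the other 3, by the gap to its neighbour over the range of the group, for the levels and ratios of the 3 miRNAs. Chance alone gives such a gap in about 1 of 20 groups. MiR-425-3p in the serum of cow 3, at 381.5 RPM, lay apart from the other sera (80.7 to 123.5 RPM), with a gap of 0.858 of the range. The same reads set the miR-425-3p share of that library, 11.0% of the miR-425 reads, with a gap of 0.867. The ratio of miR-191 to miR-425-5p in the serum of cow 1, at 12.0, had a gap of 0.834 from the other sera (10.4 to 10.7), although its counting interval (11.0 to 13.1) overlapped theirs.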

How the results depend on the processing

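The numbers of miRNAs higher in exosomes and in sera were 5 and 11 by limma, 8 and 6 by edgeR with TMM, 13 and 3 by DESeq2. With a replicate block the numbers were 6 and 29 by limma, and 13 and 13 by edgeR. Leaving out 1 library or 1 cow at a time, they were 3 to 5 and 2 to 18. MiR-191 was not called under any of 21 alternatives, nor was miR-425-5p. The log2 FC of miR-191 was -0.31 to -0.04 when libraries or cows were left out, and changed sign with TMM scaling in edgeR (0.0294, and 0.0232 with the block) and with DESeq2 (0.16), but not in edgeR with library totals (-0.18). That of miR-425-5p was -0.27 to 0.0046, and changed sign with TMM scaling in edgeR (0.0356, and 0.0377 with the block), with DESeq2 (0.16) and without cow 3, but not in edgeR with library totals (-0.20). That of miR-425-3p stayed below 0 under all 20, from -2.79 to -1.40 (FDR 0.00013 to 0.298). It was called with the replicate block (-2.15 by limma, -1.44 by edgeR) and without the exosomes of cow 3, and ranged from -2.79 to -1.54 when libraries or cows were left out. The log2 ratio of miR-191 to miR-425-5p differed by -0.134 to 0.0733 with libraries or cows left out, so its sign was not stable, and p was 0.229 or more in each exact test. The miR-425-3p share differed by -4.92 to -2.21 points with libraries or cows left out. The arm difference of miR-425 was 1.17 to 2.33 (FDR 0.0445 to 0.454 by limma), and 1 to 3 hairpins were then called. With at least 3 reads of each arm in every library, 1 of 10 hairpins was called and miR-425 dropped out, since 2 exosome libraries hold 1 read of its 3p arm. The block changed no call of miR-191, of miR-425-5p or of the miR-425 arm ratio by limma. It moved the calls over all miRNAs from 16 to 35 by limma and from 14 to 26 by edgeR. For the ratio of miR-191 to miR-425-5p and the miR-425-3p share, the sign-flip test could give no call. Its smallest p with 4 cows is 0.125. The depth of the exosomes limits every statement on miR-425-3p.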
